A study of Mus musculus with 6 samples.

Results

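Followed here in the Atg7-deficient mouse brain are the selective autophagy receptor genes Sqstm1, Nbr1, Optn, Tax1bp1, Calcoco1, Ncoa4 and Tollip, the scaffold gene Wdfy3 and the p62 partner gene Keap1, 9 genes in all. Selective autophagy receptors are proteins that pick out cargo for destruction. They bind the cargo, often through ubiquitin chains on it, and they bind LC3 or GABARAP proteins on the growing autophagosome membrane. ATG7 is the enzyme that activates these membrane proteins for their attachment to lipid, so that receptor proteins and their cargo are known to pile up where it is missing. p62/SQSTM1 and NBR1 are receptors for ubiquitin-tagged protein. p62 also binds KEAP1, the adaptor that sends the oxidative stress factor NRF2 to degradation. The arrays measure the RNA of these genes and not their protein.

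A transcript cluster is a set of probes along 1 transcribed region, and for each gene the cluster paired with its symbol alone in the array annotation was read. Where several clusters qualified, the brightest was taken by its mean over all 6 arrays. Of the 9 genes, 8 had such a cluster, among 19699 genes in all, and Optn, the gene of optineurin, is not analysed here because the annotation lists no cluster for its symbol. The list was put together with the differences of Sqstm1 and Nbr1 between the genotypes already known. The differences of all 8 genes between the genotypes are therefore a description and carry no test.

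Total RNA from C57BL/6 mice at P16 had been put on 6 Affymetrix arrays with probes in mouse exons. There are 3 arrays from mice with floxed Atg7 (Atg7f/f, cKO) and 3 from mice with wild-type Atg7 (Atg7+/+, control), and both groups carry the Cre driver. The driver is NexCre in the sample labels and Nestin-Cre in the paper. Either driver acts within the neural lineage, so that microglia, which arise elsewhere, keep their Atg7. The drivers need not act in the same cells of that lineage, and other cells may keep Atg7 as well. The labels give the tissue as brain, and the methods of the paper as cerebral cortex.

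The cluster of Atg7, which the annotation also pairs with Camsap1, was at 6.12, 6.03 and 5.90 on the log2 scale in the cKO arrays, against 6.58, 6.54 and 6.39 in the control arrays. Every cKO array lay below every control array. All 6 of 6 listed neuronal markers were measured, at a mean log2 signal of 9.48 to 9.63 in the cKO and 9.58 to 9.62 in the control arrays, while 5 of 6 liver genes lay at 4.18 to 4.27 and 4.30 to 4.32. The array cKO replicate 1 stood apart from the rest. It differed from the other 5 arrays in the markers of sex. Its signal of Xist, which is transcribed from the inactive X chromosome, was 9.51, against 3.48 to 4.15 in the others, while 3 Y-linked genes were lowest on it, with Eif2s3y at 2.90 against 5.50 to 5.84, Kdm5d at 3.96 against 5.92 to 6.07 and Uty at 3.22 against 5.26 to 6.74. The part of sex in the values of this array was not tested. The first principal component, with 36.0% of the variance, set cKO replicate 1 at -26.4 and control replicate 1 at -13.9, while the other 4 arrays lay between 2.51 and 15.96. Values without cKO replicate 1 are therefore given beside each of the 8 genes and the related genes named, apart from Gsr and Tkt.

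RefSeq start sites are shown first, for the receptor genes whose groups did not overlap and, chosen after the search for motifs, for the Ncoa4 window that held the antioxidant response element core. Of the 9 genes, 8 had a window of 250 bases before to 50 after a start site in the RefSeq table of GRCm38.p6, 12 windows in all. These are not the 8 genes with a cluster. Wdfy3 had no window, while Optn, which has no cluster, had 1 of the 12. The window of Sqstm1 is chr11:50210771-50211070 on the minus strand, that of Nbr1 shown is chr11:101552404-101552703 on the plus strand, and that of Ncoa4 shown is chr14:32165539-32165838 on the plus strand. Capitals mark every match to 5 motifs searched on both strands, namely the core of the antioxidant response element that NRF2 binds (TGACNNNGC), the E-box of the TFEB family (CACGTG), a core of ATF4 sites (TGATGNAA), the GC box (GGGCGG) and the TATA box (TATAAA).
Sqstm1: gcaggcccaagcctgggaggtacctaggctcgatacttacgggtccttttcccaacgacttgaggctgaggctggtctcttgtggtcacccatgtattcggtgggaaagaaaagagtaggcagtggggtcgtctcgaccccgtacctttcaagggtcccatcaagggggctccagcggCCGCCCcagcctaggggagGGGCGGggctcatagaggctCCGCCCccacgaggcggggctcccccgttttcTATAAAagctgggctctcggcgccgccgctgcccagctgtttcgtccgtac
Nbr1: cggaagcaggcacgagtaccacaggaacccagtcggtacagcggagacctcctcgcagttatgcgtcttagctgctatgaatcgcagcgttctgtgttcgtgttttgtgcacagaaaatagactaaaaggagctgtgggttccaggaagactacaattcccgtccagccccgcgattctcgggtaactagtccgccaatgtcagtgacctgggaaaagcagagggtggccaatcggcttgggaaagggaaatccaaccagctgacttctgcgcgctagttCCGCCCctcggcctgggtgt
Ncoa4: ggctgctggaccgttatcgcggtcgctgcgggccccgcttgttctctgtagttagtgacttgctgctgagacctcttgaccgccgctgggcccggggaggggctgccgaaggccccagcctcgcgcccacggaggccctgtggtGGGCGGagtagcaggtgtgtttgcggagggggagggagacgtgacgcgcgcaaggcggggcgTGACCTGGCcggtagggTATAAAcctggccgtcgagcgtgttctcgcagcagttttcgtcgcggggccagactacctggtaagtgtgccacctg
The Sqstm1 window held 3 GC boxes, whose first bases lie at -72, -53 and -33 from the start, and a TATA box at -1. The Nbr1 window shown held 1 GC box at 31, and its other window held no match. The Ncoa4 window shown is 1 of 3, and the other two held no match. The antioxidant response element core was found in 2 of the 12 windows, at -44 in the Ncoa4 window shown and at -205 in the second window of Tax1bp1, where 12.4% of all 32851 windows of this length hold it. The E-box and the ATF4 core, which 7.15% and 3.97% of all windows hold, were in none of the 12. A GC box is in 35.7% of all windows and a TATA box in 13.6%. A match is a description of these letters and not a binding site.

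Sqstm1, which encodes p62, had log2 signals of 9.62, 9.18 and 9.14 in cKO replicates 1 to 3, against 8.87, 8.81 and 8.83 in control replicates 1 to 3. The lowest cKO array exceeded the highest control array by 0.26. The control arrays spanned 0.057 and the cKO arrays 0.49, most of it from cKO replicate 1. The mean was 9.31 ± 0.27 in cKO and 8.84 ± 0.030 in control brains (SD, n = 3 each), a difference of 0.47 (standard error 0.14 from limma) and a ratio of 1.39. Without cKO replicate 1 the difference was 0.32, and without both arrays numbered 1 it was 0.33. The cluster was among the brightest, with a mean signal above 98.8% of the genes, which is a statement on probe brightness and not on RNA amount. From these same arrays, the paper names p62/SQSTM1 as a favorable target that a lack of autophagy induces.

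Nbr1, the receptor gene that shares the domain plan of Sqstm1, had log2 signals of 7.39, 7.26 and 7.29 in the cKO arrays, against 7.06, 6.97 and 6.93 in the control arrays. The groups were again apart, by 0.20, and here the arrays of both groups were equally close to each other. The mean was 7.32 ± 0.068 in cKO and 6.99 ± 0.068 in control brains (SD, n = 3 each), a difference of 0.33 (standard error 0.078 from limma) and a ratio of 1.26. The difference was 0.29 without cKO replicate 1 and 0.33 without both arrays numbered 1. Sqstm1 and Nbr1 both lie on chromosome 11, far apart. They had the highest signals of their groups in cKO replicate 1 and control replicate 1, as did Wdfy3, Tollip and Keap1.

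Sqstm1 and Nbr1 were 2 of 8 genes with every cKO array above every control array, where 4.15% of all 19699 genes had this order. None of the 8 genes had every cKO array below every control array, where 4.24% of all genes did. Of the 8 genes, 5 had a higher mean in cKO brains, against 47.5% of all genes, and their median difference was 0.15, against -0.0059 over all genes. The genes were picked with these values known, so nothing is read from the counts.

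**Figure D1:**
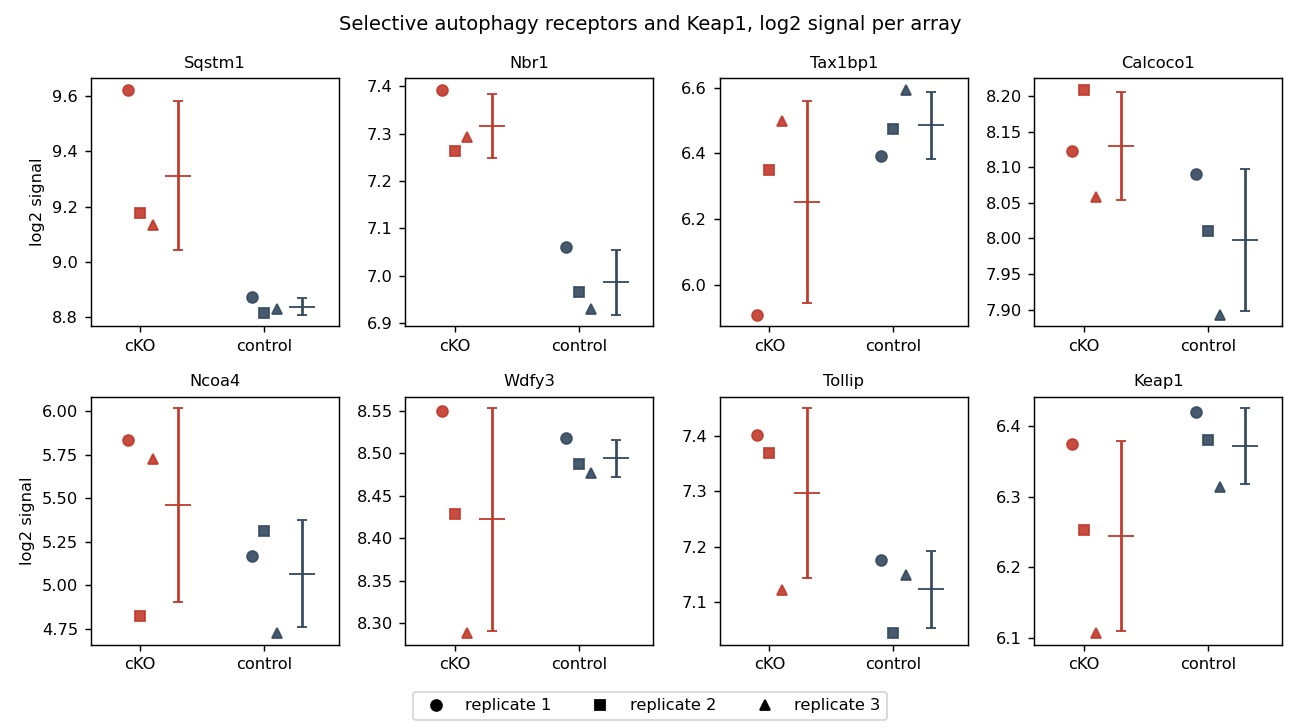
Log2 signal (y axis, a separate scale in each panel) of the 8 genes on each array, cKO in red at the left and control in dark blue at the right, with the replicate number as the symbol and mean ± SD (n = 3) as the bar. The groups of Sqstm1 and Nbr1 do not overlap, and those of the other 6 genes do.

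Calcoco1, the gene of a receptor for endoplasmic reticulum and Golgi membranes, had log2 signals of 8.12, 8.21 and 8.06 in the cKO arrays, against 8.09, 8.01 and 7.89 in the control arrays. Control replicate 1 lay above cKO replicate 3, so that the groups overlapped. The difference was 0.13 (standard error 0.085), with 0.14 without cKO replicate 1 and 0.080 without control replicate 3. Tollip, whose protein binds ubiquitin through a CUE domain and also acts in receptor signalling, was at 7.40, 7.37 and 7.12 in the cKO arrays, against 7.18, 7.04 and 7.15 in the control arrays. Here cKO replicates 1 and 2 lay above all control arrays and cKO replicate 3 lay among them. The difference of Tollip was 0.17 (standard error 0.099), with 0.12 without cKO replicate 1 and 0.26 without cKO replicate 3. Without cKO replicate 3, the groups of Calcoco1 and Tollip did not overlap either, which made 4 of 8 genes higher in this way. In the other direction, Tax1bp1 then had every cKO array below every control array. With that array left out, 10.7% of all genes had every cKO array above every control array and 6.99% every one below.

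Ncoa4 encodes the receptor that carries ferritin, the iron store, to the lysosome. Its log2 signals of 5.83, 4.82 and 5.73 in the cKO arrays and 5.17, 5.31 and 4.73 in the control arrays were the most scattered of the 8 genes. The arrays cKO replicates 1 and 3 lay above all control arrays, while cKO replicate 2 lay near the lowest of them. The difference was 0.39 with a standard error of 0.29. It was 0.71 without cKO replicate 2 and 0.21 without cKO replicate 1. The cKO arrays spanned 1.01 and the control arrays 0.59, both more than the difference of 0.39.

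Tax1bp1, the gene of a receptor for ubiquitin-tagged aggregates that works with NBR1, had a lower mean in cKO brains. Its log2 signals were 5.91, 6.35 and 6.50 in the cKO arrays, against 6.39, 6.47 and 6.59 in the control arrays. The lowest value, in cKO replicate 1, set most of the difference of -0.23 (standard error 0.16), which was -0.061 without that array. Sqstm1 had its highest signal on the same array, so that these receptor genes lay on opposite sides of their group means there.

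Keap1 had log2 signals of 6.38, 6.25 and 6.11 in the cKO arrays, against 6.42, 6.38 and 6.31 in the control arrays. Only cKO replicate 1 lay among the controls. The difference was -0.13 (standard error 0.091), with -0.19 without cKO replicate 1 and -0.058 without cKO replicate 3. Wdfy3 encodes ALFY, a large scaffold protein that gathers p62-positive aggregates, and was at 8.55, 8.43 and 8.29 in the cKO arrays, against 8.52, 8.49 and 8.48 in the control arrays. Here cKO replicate 1 was the highest of all 6 arrays and cKO replicate 3 the lowest. The difference of Wdfy3 was -0.072 (standard error 0.088), with -0.14 without cKO replicate 1 and -0.0048 without cKO replicate 3. Without cKO replicate 1, the cKO arrays of both Keap1 and Wdfy3 lay below all control arrays, and with that array left out 17.7% of all genes did so.

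**Figure D2:**
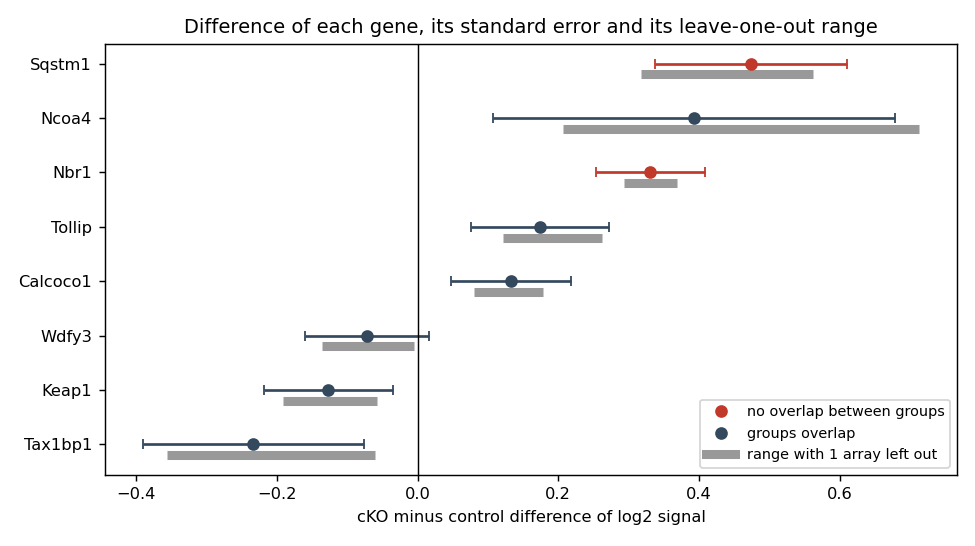
Difference of log2 signal, cKO minus control (x axis), of each gene, as a point with its standard error from limma and, as a grey bar, the range of the difference with 1 array left out in turn. Sqstm1 at 0.47 and Nbr1 at 0.33 are drawn in red because their groups do not overlap, and the bar of Wdfy3 reaches -0.0048.

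The 8 genes did not vary as 1 block between the arrays. Set against the control mean of each gene, the median of the 8 genes was 0.20, 0.073 and 0.036 in cKO replicates 1 to 3, against 0.051, -0.0094 and -0.037 in control replicates 1 to 3. The median of cKO replicate 3 thus lay among those of the controls. Among the cKO arrays, 6 of 8 genes were highest in replicate 1, with Calcoco1 and Tax1bp1 as the exceptions. Among the control arrays, 6 of 8 were also highest in replicate 1, with Ncoa4 and Tax1bp1 as the exceptions. The share of all genes highest in replicate 1 was not counted, so nothing is read from these 2 counts. The first principal component over all genes also set both arrays numbered 1 apart from the others. The array medians over all clusters lay between 4.45 and 4.53. The part of array-wide effects in the values of the 8 genes was not tested. The SD was larger in the cKO than in the control arrays for 6 of the 8 genes, and for 65.2% of all genes.

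As a measure of likeness, the Euclidean distance between log2 values was taken over the 6 arrays, with each gene centred on its own mean. Among the 8 genes, the nearest profiles were those of Wdfy3 and Keap1, at a distance of 0.084. Sqstm1 and Nbr1 were 0.35 apart, and Sqstm1 and Tax1bp1 1.20. The distance of Sqstm1 from a flat profile was 0.70, and that of Nbr1 0.43. The distances share the genotype difference and the array numbered 1, and they are given as a description over 6 arrays.

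**Figure D3:**
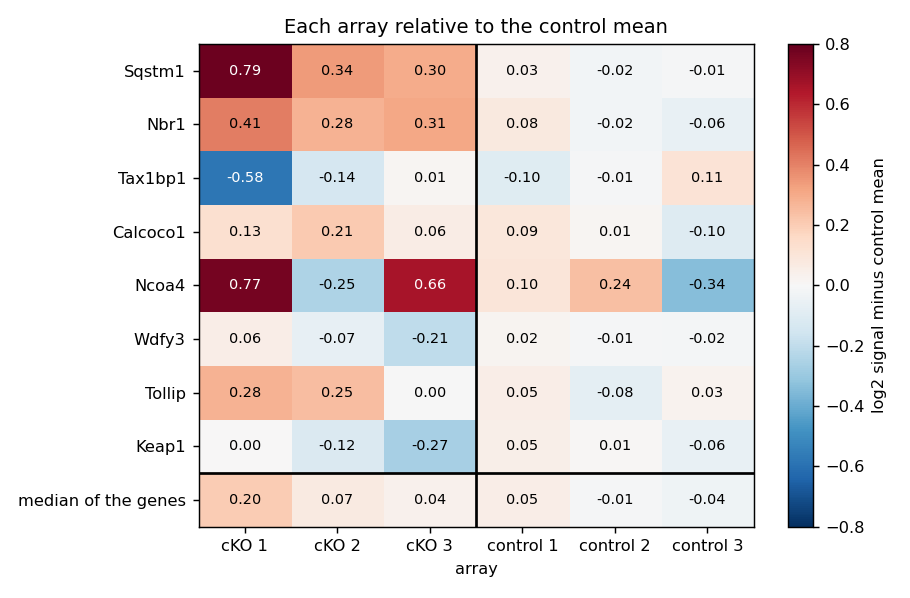
Log2 signal minus the control mean for each gene (rows) on each array (columns, cKO left of control), with the median of the 8 genes in the bottom row. In cKO replicate 1, Sqstm1 stood at 0.79 and Tax1bp1 at -0.58, while the median of the 8 genes was 0.20.

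Over all genes with a mean signal above the median, the 3 profiles nearest to Sqstm1 were those of Ephx1, Gstk1 and Mip. Ephx1, a microsomal epoxide hydrolase gene and a known NRF2 target, lay at a distance of 0.092, with 6.78, 6.41 and 6.36 in the cKO arrays and 6.14, 5.99 and 6.04 in the control arrays. Gstk1, a glutathione transferase gene, lay at 0.20 and Mip, the gene of the lens water channel, at 0.22. The 3 profiles nearest to Nbr1 were those of F3, the tissue factor gene, at 0.077, of Hsd17b11, a steroid dehydrogenase gene of lipid droplets, at 0.091, and of Ctns, the lysosomal cystine transporter gene, at 0.091. These 6 genes differed between the genotypes by 0.29 to 0.46, which follows from the measure of likeness.

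The cluster taken by the rule was not the only one for 3 of the genes. Tax1bp1 has a dimmer cluster with log2 signals of 5.14, 4.53 and 4.81 in the cKO arrays, against 5.67, 5.36 and 5.59 in the control arrays. In this cluster every cKO array lay below every control array, and the difference was -0.71, on the same side as the -0.23 of the brighter cluster and larger. In the brighter cluster cKO replicate 1 was the lowest array, and in the dimmer one it was the highest of the cKO arrays. With the clusters averaged, Tax1bp1 differed by -0.47 and its groups did not overlap.

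Ncoa4 has a second cluster of its own, with 3.46, 3.33 and 3.78 in the cKO arrays and 3.64, 3.07 and 2.75 in the control arrays, and a difference of 0.37. Another cluster, which the annotation shares between Ncoa4 and its pseudogene Ncoa4-ps, was far brighter than either. It was at 8.81, 8.18 and 8.48 in the cKO arrays, against 8.74, 8.72 and 8.49 in the control arrays, a difference of -0.16 on the opposite side. A further shared cluster differed by 0.0052. The direction for Ncoa4 therefore changed with the cluster that was read. The second cluster of Wdfy3 differed by -0.055, close to the -0.072 of the first, and was highest in replicate 1 of both groups.

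**Figure D4:**
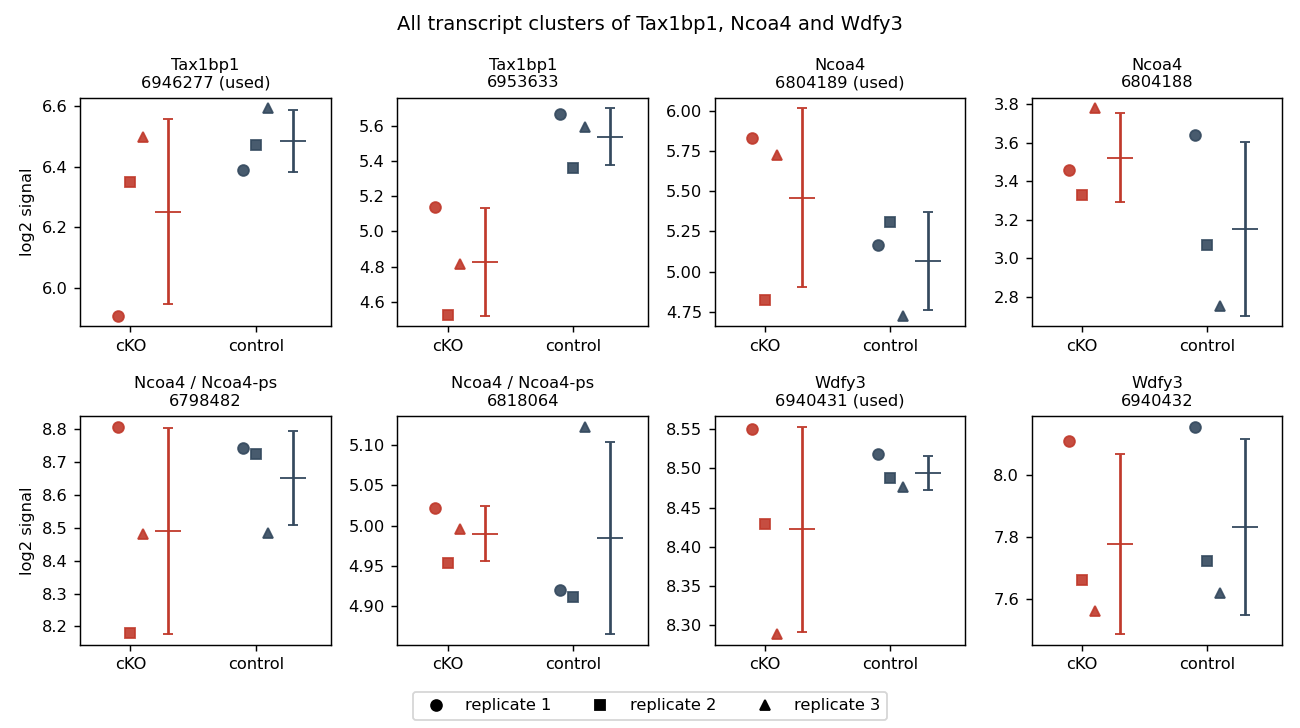
Log2 signal (y axis, a separate scale in each panel) of all 8 clusters that the annotation pairs with Tax1bp1, Ncoa4 or Wdfy3, with cKO at the left, control at the right, the replicate number as the symbol and mean ± SD (n = 3) as the bar. The dimmer Tax1bp1 cluster has groups that do not overlap, and the brightest Ncoa4 cluster, shared with its pseudogene, has a lower mean in cKO.

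The other genes of the pathway were tested with limma across all genes. Of 98 listed genes, 87 were measured. At an adjusted p under 0.05, 0 of these 87 and 0% of all genes were called. At an unadjusted p under 0.05, 4 of the 87 were higher and 1 was lower in cKO brains, where 2.09% and 1.86% of all genes were. Without moderation of the spread, the linear model called 0 genes at an adjusted p under 0.05, while 6 of the 87 and 3.98% of all genes had an unadjusted p below that threshold. Of the 87, 6 had every cKO array above every control array and 4 had every one below. Of all genes, 4.15% and 4.24% had these orders. The median difference of the 87 genes was -0.0087, against -0.0059 over all genes.

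The LC3 and GABARAP genes, which encode the membrane anchors that receptors dock on, were 5 of 5 measured. In cKO brains 4 had a higher and 1 a lower mean, with a median of 0.11, and 0 passed in either direction. Gabarapl1, with the lowest p among them, was at 10.1, 9.93 and 9.78 in the cKO arrays and 9.78, 9.74 and 9.78 in the control arrays (difference 0.16, standard error 0.094, adjusted p = 0.9995 from limma), or 0.088 without cKO replicate 1. Of 20 measured receptor genes outside the 8, among them those for mitochondria and the endoplasmic reticulum, 11 had a higher and 9 a lower mean, with a median of 0.014. Only Calcoco2, the gene of the receptor NDP52 in humans, had an unadjusted p under 0.05. It was dim, at 2.08, 2.32 and 2.10 in the cKO and 2.53, 2.32 and 2.73 in the control arrays (difference -0.36, standard error 0.13, adjusted p = 0.9995 from limma), with -0.32 without cKO replicate 1 and 0.064 with its clusters averaged.

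Of 18 genes of kinases and signalling partners, 5 had a higher and 13 a lower mean, with a median of -0.033. Csnk2a1, the gene of a casein kinase 2 subunit that phosphorylates p62, was the lowest in p, with a difference of -0.18 (standard error 0.093, adjusted p = 0.9995 from limma). Its cKO arrays all lay below its control arrays, as did those of Mitf, a gene of the TFEB family. Csnk2a1 differed by -0.13 without cKO replicate 1, by -0.12 without control replicate 1, by -0.063 without both and by -0.31 with its clusters averaged. Of 4 measured deubiquitinase genes, 2 had a higher mean, with Usp8 at 0.071, or 0.078 without cKO replicate 1 and -0.044 without control replicate 1. The TFEB family and its regulators had 2 higher and 5 lower means among 7 genes, with Mitf at -0.12 (standard error 0.073, adjusted p = 0.9995 from limma), also without cKO replicate 1.

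The partners and targets of KEAP1 were measured as the arm of the pathway on which p62 acts. Nfe2l2, the gene of NRF2 itself, was named after its values were seen. It was at 5.65, 5.34 and 5.29 in the cKO arrays and 5.36, 5.33 and 5.26 in the control arrays, with only cKO replicate 1 and no other cKO array above all controls. The difference was 0.11 (standard error 0.11), and it was -0.0016 without that array. Of 8 partner genes 4 had a higher and 4 a lower mean, with Mafk at 0.13 (standard error 0.081, adjusted p = 0.9995 from limma), also without cKO replicate 1, and at 0.070 without control replicate 3. Of 19 NRF2 target genes, 11 had a higher and 8 a lower mean, with a median of 0.041. The groups did not overlap for 2 of the higher genes, Ephx1 and Aox1, and for 2 of the lower ones, Gsr and Tkt. Gsr differed by -0.094 (standard error 0.074) and Tkt by -0.17 (standard error 0.086), neither at an unadjusted p under 0.05. Past an unadjusted p under 0.05 were Ephx1 (difference 0.46, standard error 0.13, adjusted p = 0.9995 from limma), or 0.33 without cKO replicate 1, and Aox1, an aldehyde oxidase gene (difference 0.18, standard error 0.071, adjusted p = 0.9995 from limma), or 0.16 without that array. Ephx1 was picked by the study on these arrays and is not independent evidence of direction.

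Ferritin is the cargo of NCOA4. Fth1, its heavy chain gene, was at 7.01, 6.996 and 6.90 in the cKO arrays, against 6.69, 6.78 and 6.68 in the control arrays. The groups did not overlap, and their means were 0.25 apart (standard error 0.075, adjusted p = 0.9995 from limma), or 0.23 without cKO replicate 1. Tfrc, the transferrin receptor gene, was at 7.01, 7.41 and 7.44 in the cKO arrays and 6.17, 6.71 and 6.51 in the control arrays (difference 0.82, standard error 0.17, adjusted p = 0.9995 from limma, and 0.96 without cKO replicate 1), and it too was picked by the study on these arrays. Of 6 measured genes of ferritin and iron handling, 4 had a higher and 2 a lower mean.

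**Figure D5:**
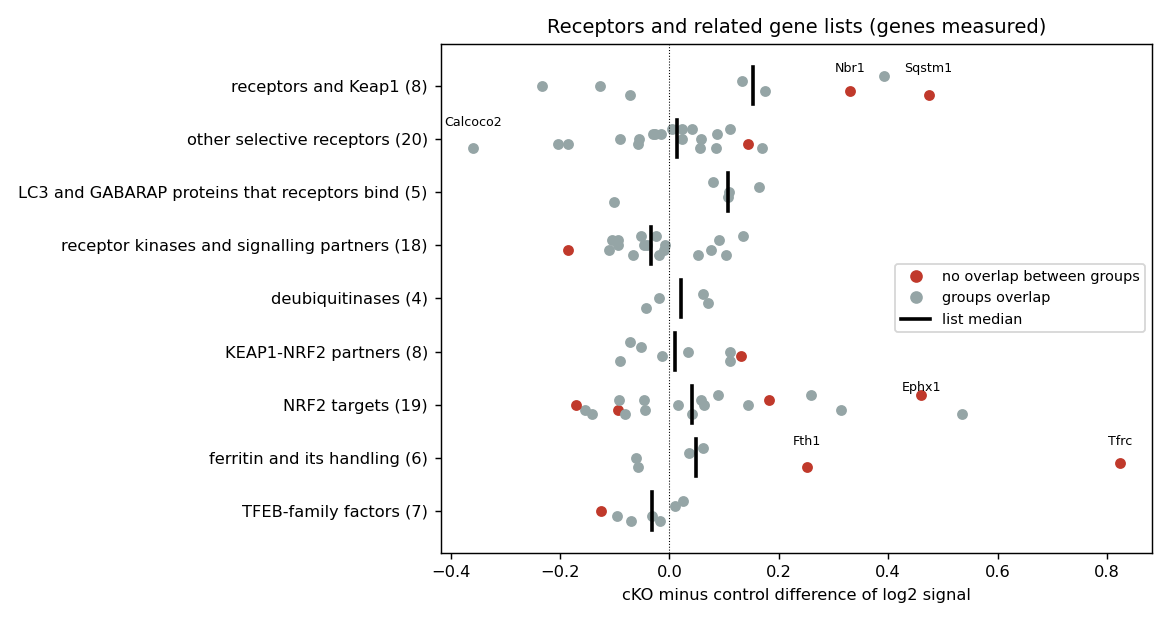
Difference of log2 signal, cKO minus control (x axis), of every measured gene in the receptor group and in 8 related lists (rows, with the number measured), with black bars at the list medians and red points for genes whose groups do not overlap. The median is 0.15 for the receptors and Keap1 and between -0.033 and 0.11 for the other lists.

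Markers of cell types also differed in level between these arrays. Of 5 measured astrocyte markers 5 had a higher mean in cKO brains, with a mean log2 signal of 7.14 to 7.25 in the cKO and 7.07 to 7.17 in the control arrays. Of 5 oligodendrocyte markers 5 had a lower mean, with 8.0 to 8.51 in the cKO and 8.32 to 8.67 in the control arrays, and of 4 striatal markers 4 had a lower mean, with 6.16 to 7.004 and 6.96 to 8.05. Microglial markers, 3 of 6 with a higher mean, lay at 6.48 to 6.69 in the cKO and 6.45 to 6.66 in the control arrays. Endothelial markers, 4 of 6 with a higher mean, lay at 6.45 to 6.72 in the cKO and 6.49 to 6.63 in the control arrays. Of 5 markers of cortical excitatory neurons 1 had a higher mean, with 7.26 to 7.55 in the cKO and 7.51 to 7.60 in the control arrays, and of 3 blood cell markers 3 had a higher mean, with 4.97 to 5.23 and 4.85 to 5.03. Their part in the values of the receptor genes was not tested. In tissue RNA, fewer cells of a type and less RNA per cell cannot be told apart.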

How the data were processed

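RNA of 6 arrays was analysed, 3 cKO and 3 control, grouped by the genotype and numbered as in the sample titles. The log2 signals per cluster had been summarised and normalized by the authors with a method not given in the sources used, and the paper names GeneSpring as its software. A deposited table of the authors' own comparison (p-values and fold changes) was not used, nor were scanner files.

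The annotation lists 24276 of 101175 clusters, 22773 with 1 symbol and 1503 with several. For 22245 of those with 1 symbol, the current symbol came from RefSeq (GRCm38.p6). The brightest cluster was taken for each of 2224 genes with several, for 19699 genes in all, dim ones included. Differences are cKO minus control. Standard errors and p-values are from limma (version 3.58.1, R 4.3.3; lmFit and eBayes, two-sided, Benjamini-Hochberg over all genes, threshold 0.05). The labels do not say that the arrays are of separate animals, so that p-values cover only the spread between the samples at hand.

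The members and lists were chosen with earlier results of these data known. Named were the 8 genes, of each related list the genes whose groups did not overlap at an unadjusted p under 0.05 or else the gene with the lowest p, the 3 genes nearest to Sqstm1 and to Nbr1 (without predicted genes and small RNAs), and Atg7. Gsr and Tkt were named as well, as the NRF2 targets whose groups did not overlap with a lower cKO mean. The fit was tested on simulated data, with 200 of 19699 genes changed in the cKO minus control comparison. It recovered 0% of genes changed by 0.5 on the log2 scale, 76.5% of those changed by 1 and 96% of those changed by 2, with 0, 12 and 4 false calls in that order. The simulated noise was independent between genes and arrays, without the array-wide differences seen here, so that these rates need not hold for the real arrays. The alternatives were another normalization, array centring, a filter on dim genes, another variance model, averaged clusters, a replicate block, no moderation, a looser threshold of 0.1 and leaving out each array.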

Additional observations from a re-analysis of the deposited data

How the results depend on the processing

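The differences of the 8 genes kept their sign under every alternative run, all of which took these genes from clusters with 1 symbol. The brighter cluster that Ncoa4 shares with its pseudogene, which differed by -0.16, was therefore read in none of them. With 1 array left out, and with both arrays numbered 1 left out (an alternative chosen after seeing the data), the difference of Sqstm1 lay between 0.32 and 0.56, that of Nbr1 between 0.29 and 0.37 and the median of the 8 genes between 0.12 and 0.21. The number of these genes with every cKO array above every control array lay between 2 and 4, and of those with every cKO array below between 0 and 2. Over all genes, these counts lay between 1386 and 2950 above and between 1377 and 4467 below, against 818 and 835 with all arrays. The highest of each, 2950 and 4467, were without both arrays numbered 1. Groups of fewer arrays fail to overlap more easily, so that the counts do not compare with those of all arrays. For every cKO array below, the count was 3493 without cKO replicate 1 and 1377 to 1646 without any other single array. With the clusters of a gene averaged, 1 of the 8 genes, Tax1bp1, had groups that did not overlap with a lower cKO mean, as 4.35% of all genes had. The related genes at an unadjusted p under 0.05 numbered 3 to 6 of 87 with arrays left out, where 3.12% to 7.66% of all genes did, against 5 of 87 and 3.95% with all arrays. Usp8 differed by -0.044 without control replicate 1 to 0.13 without control replicate 3, with -0.037 without both arrays numbered 1. Calcoco2 differed by 0.064 with its clusters averaged, and the 0.11 of Nfe2l2 became -0.0016 when cKO replicate 1 was left out and 0.18 when cKO replicate 3 was. After adjustment 1 gene, Peg10, passed in place of 0 with the clusters averaged and 1, again Peg10, after the dimmest 25% of genes were left out. The cause was not tested.

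Deviations of same-numbered arrays correlated at 0.31, 0.037 and 0.17, and cKO replicate 2 correlated best with control replicate 3, so that the numbers were not taken as pairs. With the replicate block, the differences were those without it, 0.47 for Sqstm1 and 0.33 for Nbr1, 0 genes passed after adjustment, 1156 in place of 779 genes had an unadjusted p under 0.05, and 5 related genes did. The number of arrays limits the precision.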
